A study of Homo sapiens with 30 samples.

Results

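SIN3B, a scaffold protein of the SIN3 deacetylase complex, was compared with acetylation of lysine 9 of histone H3 (H3K9Ac) on the chromatin of parental cells of MDA-MB-231, a cell line from a triple-negative breast cancer. The study used chromatin immunoprecipitation followed by sequencing (ChIP-seq) to ask where SIN3 complexes sit and what the loss of the subunit SAP30 changes. Of its 30 samples, 4 were compared here, chosen by the antibody and the genotype in the labels: 2 SIN3B libraries (an antibody from Novus) and 2 H3K9Ac libraries (Abcam), all 4 with the genotype Parental and with no treatment named. Chromatin was fixed with formaldehyde and sonicated. Parental libraries of SAP30, SIN3A, RNA polymerase II (Pol II) and H3K4me3, 2 of each, served for comparison, as did 2 H3K9Ac libraries of SAP30-KO1 cells, whose genotype is a SAP30 knockout. Per the study's methods this line was made by CRISPR/Cas9 and pooled from several clones. Nothing in the labels says that replicates came from separate cultures, so the spread between replicates may be technical. A single cell line was used, and 1 antibody for each target.

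Each library came with its own list of peak summits, the single bases at which the peak caller placed the tops of peaks. The SIN3B lists held 26307 and 22298 summits and the H3K9Ac lists 54622 and 53651. Sequencing depth is unknown. Since a longer list can reach weaker sites, the score of a summit, the −log10 of its q-value, was used only to rank it within its list from 0% (best) to 100%. The lists of the 2 targets differ in length and make-up, so a SIN3B rank is not compared with an H3K9Ac rank. Summits within 1000 bp of each other were joined, and a region counted when both replicates had a summit in it. A region was a promoter region within 1000 bp of an annotated start site and distal otherwise. SIN3B gave 12864 regions and H3K9Ac 31188. The other replicate had a summit within 1000 bp for 76.1% and 87.1% of the SIN3B summits and for 83.2% and 86.0% of the H3K9Ac summits.

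The SIN3 scaffolds SIN3A and SIN3B hold the histone deacetylases HDAC1 and HDAC2 together with subunits such as SAP30, and are brought to DNA by sequence-specific factors, among them the MXD repressors and REST, which represses neuronal genes in other cell types. Acetyl groups on lysine 9 of histone H3 are written by acetyltransferases such as KAT2A and KAT2B and are found on nucleosomes next to the start sites of active genes and at enhancers. The comparison asks whether a scaffold of deacetylases lies at acetylated or at unacetylated sites.

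Of the 70 SIN3B regions over 5000 bp from any H3K9Ac summit, 18 held letters of RE1, the DNA element bound by REST, and the reference sequence under 6 of these is shown for that reason (GRCh37, forward strand, 201 bases centred between the best summits of both replicates, no base in an annotated exon). Capitals mark the left part of RE1, TTCAGCACC, or its core CAGCACC, which it contains, and the core of the right part, GGACAG, on either strand. The NPAS4 and VRK3 windows belong to the best-ranked SIN3B regions without H3K9Ac. Those near APLP1, SYT7, ATP2B2 and L1CAM were chosen after their values were seen.
NPAS4 intron (chr11:66189180-66189380): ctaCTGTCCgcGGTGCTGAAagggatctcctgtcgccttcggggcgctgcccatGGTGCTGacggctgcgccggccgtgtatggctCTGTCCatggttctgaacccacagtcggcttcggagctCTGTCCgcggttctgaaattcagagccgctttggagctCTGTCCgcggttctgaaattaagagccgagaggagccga
VRK3 intron (chr19:50490530-50490730): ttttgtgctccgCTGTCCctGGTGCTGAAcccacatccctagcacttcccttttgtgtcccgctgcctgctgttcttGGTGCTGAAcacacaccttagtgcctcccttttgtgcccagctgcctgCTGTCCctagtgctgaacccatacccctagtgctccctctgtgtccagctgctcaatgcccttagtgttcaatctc
APLP1, intergenic (chr19:36370788-36370988): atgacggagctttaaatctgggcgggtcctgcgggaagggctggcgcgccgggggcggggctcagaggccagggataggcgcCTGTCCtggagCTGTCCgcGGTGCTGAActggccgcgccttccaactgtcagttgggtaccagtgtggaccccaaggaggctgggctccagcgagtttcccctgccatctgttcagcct
SYT7 intron (chr11:61334730-61334930): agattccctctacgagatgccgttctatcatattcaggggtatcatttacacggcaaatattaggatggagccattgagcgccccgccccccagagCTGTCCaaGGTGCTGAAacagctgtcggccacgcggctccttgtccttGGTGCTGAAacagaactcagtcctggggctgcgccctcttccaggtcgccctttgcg
ATP2B2 intron (chr3:10501927-10502127): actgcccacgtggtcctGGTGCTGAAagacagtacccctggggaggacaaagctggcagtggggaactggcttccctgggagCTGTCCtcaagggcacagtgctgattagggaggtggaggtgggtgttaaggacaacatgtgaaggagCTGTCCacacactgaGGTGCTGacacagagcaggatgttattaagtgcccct
L1CAM intron (chrX:153140888-153141088): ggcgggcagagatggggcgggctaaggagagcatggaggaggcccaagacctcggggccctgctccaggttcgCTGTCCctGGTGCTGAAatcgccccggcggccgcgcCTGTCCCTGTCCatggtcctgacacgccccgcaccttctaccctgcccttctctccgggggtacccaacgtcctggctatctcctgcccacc

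The next windows show SIN3B summits away from start sites but inside acetylated chromatin. Capitals mark the GC box GGGCGG in RGS9, from the best-ranked distal acetylated regions. In the windows near PICART1 and in PPL, chosen after their values were seen, they mark TGANTCA, the element of AP-1, the FOS and JUN dimers.
RGS9 intron (chr17:63119316-63119516): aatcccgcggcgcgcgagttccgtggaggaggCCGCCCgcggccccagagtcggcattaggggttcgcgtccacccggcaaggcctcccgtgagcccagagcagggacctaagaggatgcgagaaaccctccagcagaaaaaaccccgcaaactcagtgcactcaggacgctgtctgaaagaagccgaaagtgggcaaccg
Near PICART1, intergenic (chr17:48105593-48105793): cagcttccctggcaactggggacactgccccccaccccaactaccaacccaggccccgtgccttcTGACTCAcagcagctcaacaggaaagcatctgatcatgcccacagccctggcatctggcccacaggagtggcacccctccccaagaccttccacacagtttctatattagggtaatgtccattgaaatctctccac
PPL intron (chr16:4993410-4993610): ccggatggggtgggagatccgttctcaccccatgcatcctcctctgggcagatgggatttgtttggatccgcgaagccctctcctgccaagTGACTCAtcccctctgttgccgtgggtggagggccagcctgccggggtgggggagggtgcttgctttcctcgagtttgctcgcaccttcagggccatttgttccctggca

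Parental cells carried H3K9Ac at the genes of a mesenchymal line. Of 14 mesenchymal genes, 11 had H3K9Ac at a start site in both replicates, among them VIM, ZEB1 and CD44, while of 21 luminal and epithelial genes 9 had it. ESR1, PGR, GATA3, FOXA1 and CDH1 were not among those 9. Over all 20098 protein-coding genes, 61.4% had H3K9Ac at a start site. The label of the cells was therefore kept.

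SIN3B sat at acetylated promoters. Of 10241 SIN3B promoter regions, 9989 (97.5%, 95% Clopper-Pearson interval 97.2 to 97.8) were joined to an H3K9Ac region, and in the 4 pairings of a single SIN3B with a single H3K9Ac library the share was 95.6 to 96.2%. All such intervals cover counting error only. Of all 84139 annotated start sites, 47.5% were acetylated. Among the 33716 start sites with SIN3B the share was 95.6%, and among the 50423 without it 15.4%. Start sites of a gene can lie next to each other, so these counts are not independent.

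Promoters that carried other marks of activity but lacked SIN3B were acetylated less often. H3K4me3, a mark of active start sites, was joined to H3K9Ac in 75.1% of 3453 promoter regions without SIN3B (interval 73.6 to 76.6) and in 97.6% of 9969 with it (97.3 to 97.9). Pol II promoter regions were acetylated in 93.6% without SIN3B (92.4 to 94.7) and in 97.5% with it. For SAP30 the shares were 83.01% and 97.0%, and for SIN3A 88.1% of only 151 regions and 97.8%. These comparisons rest on regions, which are not replicates, and no test was made of them.

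Away from promoters SIN3B also lay mostly in acetylated chromatin, but less so. Of 2623 distal SIN3B regions, 2204 (84.0%, 82.6 to 85.4) were joined to H3K9Ac, with 75.5 to 76.2% in the 4 single-library pairings, so that distal shares lay below every promoter share. With the 4 lists limited to equal length the distal share was 61.1% and the promoter share 94.8%. Distal SAP30 regions without SIN3B were acetylated in 64.7% (63.7 to 65.7) and distal H3K4me3 regions without SIN3B in 68.1% (66.6 to 69.6). For distal Pol II regions without SIN3B the share was 81.9% of 2082 (80.2 to 83.6), near that of the distal SIN3B regions. For SIN3A it was 48.1% of only 77. Acetylated distal SIN3B regions lay in introns in 62.2% and between genes in 30.7%, at a median of 9967 bp from the nearest start site. Of these, 92.1% also held SAP30, 12.4% SIN3A, 47.9% H3K4me3 and 50.8% Pol II. Acetylated SIN3B promoters held them in 98.0, 54.9, 97.9 and 96.3%.

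Seen from the side of acetylation, the overlap was far from complete. Of 13745 H3K9Ac promoter regions, 10272 (74.7%, 74.0 to 75.5) had SIN3B, and of 17443 distal regions 2632 (15.1%, 14.6 to 15.6). The single-library pairings gave 75.3 to 79.0% and 15.2 to 25.9%. The distal share depended on the second SIN3B library: without it the share was 30.1%, and with lists of equal length 28.7%. H3K9Ac promoter regions at protein-coding starts had SIN3B in 79.1% of 12122 (78.4 to 79.9), and those at starts of long noncoding RNA genes only in 41.8% of 1623 (39.4 to 44.2). The median number of CpG dinucleotides in 201 bases around the start was 21 where SIN3B was present and 12 where no SIN3B summit lay within 1000 bp.

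The presence of SIN3B followed the rank of acetylation, while acetylation did not follow the rank of SIN3B to the same extent. Regions were divided by rank into 10 bins of equal size. In the best-ranked bin of H3K9Ac regions 97.0% of promoter and 83.1% of distal regions had SIN3B. In the fifth the shares were 47.8% and 22.3%, and in the last 11.7% and 5.91%. SIN3B promoter regions were acetylated in 99.3% in the best-ranked bin of SIN3B regions and in 93.1% in the last, and distal ones in 72.7% of only 11 and 82.2%. H3K9Ac promoter regions with SIN3B had a median rank of 11.4%, against 45.5% for the 1995 with none within 1000 bp. A weak site is called less often in any list, and how far that sets these shares was not tested.

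**Figure D1:**
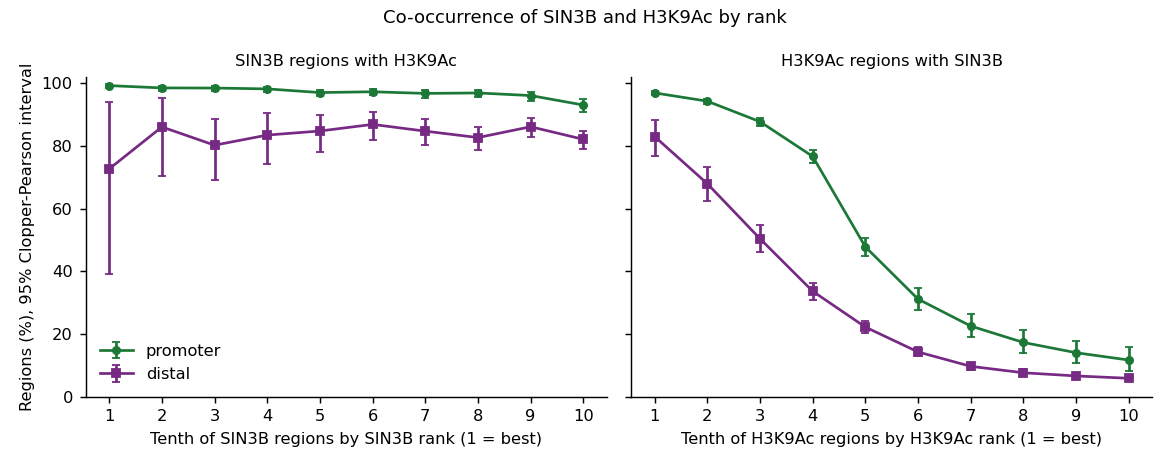
Share of regions that also hold the other target (vertical axis, %) by bin of the rank of the region in its own lists (horizontal axis, 1 is best of 10), for SIN3B regions with H3K9Ac and for H3K9Ac regions with SIN3B, at promoters and distal; bars are 95% Clopper-Pearson intervals. The SIN3B curve at promoters stays between 93.1% and 99.3%, while the H3K9Ac curves fall from 97.0% to 11.7% at promoters and from 83.1% to 5.91% at distal regions.

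The share of a library's summits that lay at promoters was 63.7% and 71.0% for SIN3B and 33.3% and 35.0% for H3K9Ac. The 2 groups did not overlap. H3K9Ac was lower by a mean of 33.2 percentage points (34.2 ± 1.21% against 67.3 ± 5.14%, SD, n = 2 libraries each), which 2 libraries against 2 cannot bring past 0.05 (two-sided exact permutation test, p = 0.333, smallest possible p = 0.33). With lists limited to equal length the difference was 6.02 points.

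The strongest sites of both kinds were promoters. The best-ranked acetylated SIN3B promoter was that of SUPT7L (chr2:27886644-27886648 in GRCh37, an exon), which encodes a subunit of the SAGA acetyltransferase complex. Its SIN3B summits ranked at 0.0190% and 0% and lay 8 and 209 bp from the nearest H3K9Ac summits of replicates 1 and 2. That of IDH3B, a subunit of the mitochondrial isocitrate dehydrogenase, ranked at 0% and 0.0404%, with H3K9Ac at 223 and 119 bp. DZANK1 and MRPL13, which encodes a protein of the mitochondrial ribosome, completed the best 4. Away from promoters the best-ranked acetylated SIN3B region lay 3538 bp from ENSG00000217702, a long noncoding RNA gene, with H3K9Ac summits 0 and 22 bp away. The RGS9 intron ranked at 1.66% and 5.65%, and a region nearest to DEF8 at 3.91% and 1.20%. All of these distal regions held SAP30, H3K4me3 and Pol II as well.

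Within acetylated regions the SIN3B and H3K9Ac summits lay apart in the median, though not in every region. Distances were counted up to 1000 bp, and summits with a longer one were left out. Of the SIN3B summits of replicate 1, 14219 of 15090 at promoters had H3K9Ac of replicate 1 that near. At distal regions 3515 of 4468 did. The median distance from such a SIN3B summit to the nearest H3K9Ac summit was 264 to 302 bp at promoters over the 4 pairings. At distal regions it was 363 to 382 bp. Between SIN3B replicates it was 132 to 137 bp and 153 to 170 bp, and between H3K9Ac replicates 53 to 56 bp and 106 to 117 bp, so the distance between targets was above the spread of both. For H3K4me3 the distance to H3K9Ac was 64 to 73 bp and 83 to 92.5 bp. SAP30 lay at 205 to 227 bp and 344 to 363 bp, SIN3A at 223 to 234 bp and 349.5 to 382 bp, and Pol II at 235 to 244 bp and 313 to 329.5 bp. These values use only summits between the outermost SIN3B summits of a region, at promoters 5860 and 6298 for SAP30 where SIN3B had 15090 and 14653. With summits anywhere in the extended region, a set added after the data were seen, the promoter medians were 63 to 72 bp for H3K4me3, 200 to 223 bp for SAP30, 221 to 231 bp for SIN3A and 233 to 240 bp for Pol II.

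**Figure D2:**
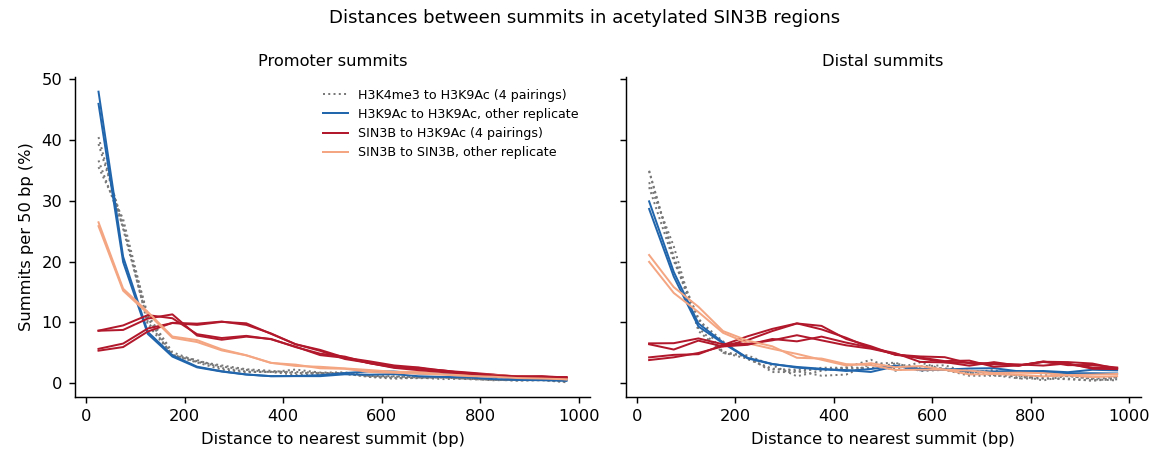
Share of summits in bins of 50 bp (vertical axis, %) by distance to the nearest summit of the second target or of the other replicate (horizontal axis, bp), at acetylated promoter and distal regions, 1 line for each pairing of libraries. Shares are of the summits whose nearest such summit lay within 1000 bp. SIN3B to H3K9Ac peaks away from 0, with 11.4 to 18.3% of promoter summits within 100 bp, while H3K4me3 to H3K9Ac has 62.9 to 66.2% there, for H3K4me3 summits between the outermost SIN3B summits of a region.

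Region by region the targets were often, but not always, apart. With the best summit of each replicate, the median distance was 122 bp between SIN3B replicates, 51 bp between H3K9Ac replicates and 313 bp between targets at promoters, and 129, 83 and 436.5 bp at distal regions. All 4 distances between the targets were above both distances between replicates in 4526 of 9989 promoter regions (45.3%) and 1092 of 2204 distal ones (49.5%). All 4 were at or below the larger replicate distance in 20.8% and 19.9%. Of the SIN3B summits with any H3K9Ac summit within 1000 bp, 33.0 to 36.4% at distal regions had them on both sides. At promoters 22.9 to 27.1% did.

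Along the direction of transcription SIN3B lay at the start site and H3K9Ac after it. At protein-coding start sites with no start of the opposite strand within 1000 bp, the median position of SIN3B summits was 36 and 71 bp downstream in the 2 libraries, and that of H3K9Ac summits 172 and 165 bp. Within 200 bp of the start lay 56.2% and 54.6% of SIN3B summits and 29.1% and 29.7% of H3K9Ac summits. H3K9Ac had 30.6% and 28.8% of its summits 200 to 400 bp downstream, where SIN3B had 7.23% and 8.40%. Just upstream, from 0 to 200 bp, H3K9Ac had 6.03% and 6.12% and SIN3B 25.3% and 16.4%. Further upstream, from 200 to 800 bp, H3K9Ac had 25.9% and 26.8%. For each of these shares the 2 libraries of a target lay closer to each other than to either library of the other target.

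**Figure D3:**
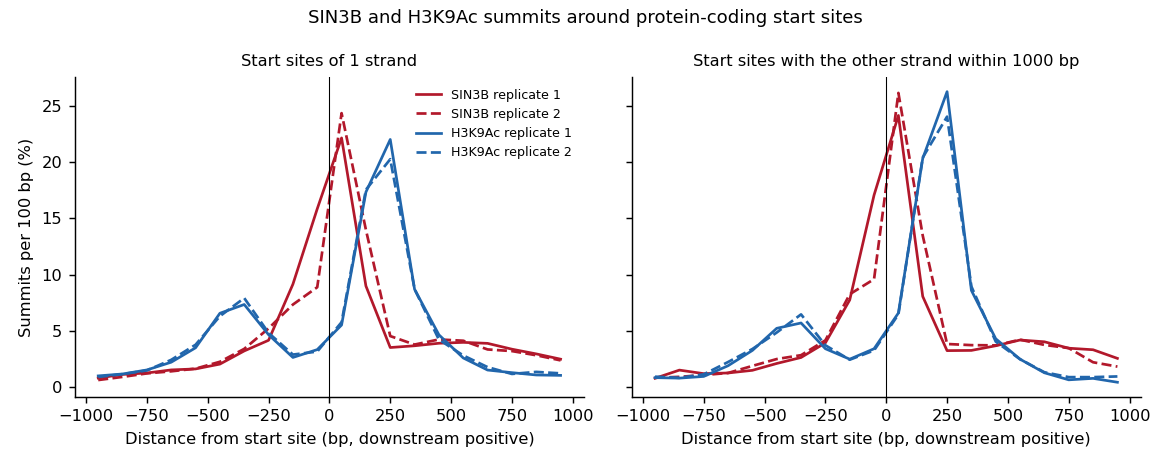
Share of summits within 1000 bp of a protein-coding start site that fall in each bin of 100 bp (vertical axis, %) by position along transcription (horizontal axis, bp), at start sites of 1 strand and at those with a start of the other strand within 1000 bp; lines are the 2 SIN3B and 2 H3K9Ac libraries. SIN3B peaks at 0 to 100 bp with 22.1% and 24.3% of summits at start sites of 1 strand, and H3K9Ac at 200 to 300 bp with 22.01% and 20.3%. There H3K9Ac has a trough 100 to 200 bp upstream of the start, with 2.66% and 2.91%.

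For SIN3B summits within 200 bp of such a start, the nearest H3K9Ac summit was downstream in 77.3 to 79.5% over the 4 pairings. It was 196 to 255 bp away when downstream and 307.5 to 334.5 bp when upstream (medians). At divergent start sites the downstream share was lower, at 69.2 to 71.2%.

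The letters under the summits differed between the targets as well, most of all at distal sites. In the 201 bases around the best SIN3B summit of acetylated distal regions, the AP-1 letters TGANTCA were found in 27.3% and 20.1% (replicates 1 and 2). Around the best H3K9Ac summit of distal regions with SIN3B they were found in 3.72% and 4.07%, at H3K9Ac regions with no SIN3B in 5.25% and 5.53%, and in 4.67% of all 84139 start-site windows. Within 50 bp of the SIN3B summit lay AP-1 letters in 16.4% and 10.7% of regions. In bins of 50 bp along the genome they lay in 8.85% and 6.13% at 0 to 50 bp after the summit. At 400 to 450 bp after it they lay in 1.72% and 1.91%. The windows near PICART1 and in PPL shown above are of this kind. Near PICART1 the SIN3B ranks were 19.1% and 22.97%, with H3K9Ac 567 and 935 bp from SIN3B. In PPL, which encodes the desmosome-linked protein periplakin, they were 7.89% and 37.8%, with H3K9Ac at 559 and 304 bp. AP-1 letters lay at the best summit of either SIN3B library in 739 of 2204 regions (33.5%). With 1 SIN3B library alone, which leaves 1 window and a larger set of regions, the share was lower. It was 28.1% of 5399 regions for the first library and 17.9% of 3553 for the second. Of the letters of other enhancer factors, GGAATG (TEAD) was found in 15.2% and 15.2% against 9.69% and 9.76% at H3K9Ac summits with SIN3B, and TGTGGTT (RUNX) in 6.08% and 5.31% against 2.77% and 2.66%. Over all start sites the shares were 8.51% and 2.51%.

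**Figure D4:**
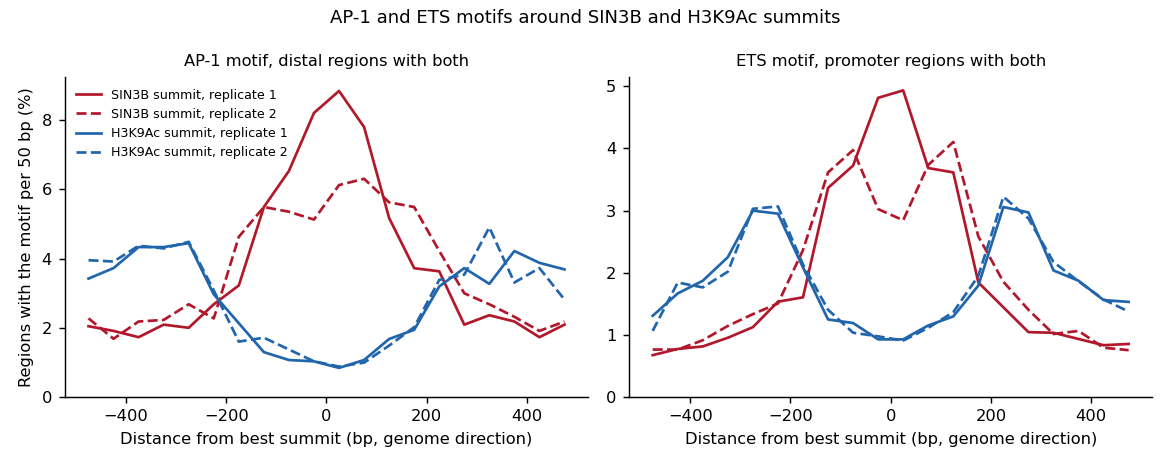
Share of regions with the AP-1 letters (distal) or the ETS letters (promoter) in bins of 50 bp (vertical axis, %) by distance from the best summit (horizontal axis, bp), for SIN3B and H3K9Ac summits of regions that hold both, 1 line for each replicate. AP-1 letters gather at the SIN3B summit and dip at the H3K9Ac summit, with 0.84% and 0.87% of regions at 0 to 50 bp of it. ETS letters gather at SIN3B promoter summits likewise, though in replicate 2 they dip at the summit base itself.

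At acetylated promoters the ETS letters CCGGAAG lay in 15.2% and 12.1% of SIN3B windows and in 3.99% and 3.78% of H3K9Ac windows, with 8.62% over all start sites. CACGTG, the E-box of MYC and MAX type factors, lay in 7.05% and 5.77% against 3.096% and 3.01% (4.99% over all), AAGATGG of YY1 in 5.82% and 5.62% against 2.53% and 2.32% (4.84%), and TGACGTCA, the cyclic AMP response element, in 1.79% and 1.01% against 0.127% and 0.107% (1.42%). CCAAT, bound by NF-Y, lay in 18.9% and 14.8% against 10.2% and 9.85%, which was below the 24.0% of all start sites in both. GGGCGG differed less, with 52.8% and 49.3% against 47.4% and 47.3% (38.8% over all). TTCCCGC, bound by E2F factors, was alike at 7.02% and 7.07% against 6.76% and 6.68%, and so was AGGGGGC, a part of the CTCF site, at 10.8% and 9.69% against 11.5% and 10.9%. CpG counts were near each other, with a median of 18 and 17 in 201 bases. All letters were searched on both strands. A match describes the sequence and does not show that a factor was bound.

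SIN3B without acetylation was rare. No H3K9Ac summit of either replicate lay within 1000 bp of 104 promoter regions (1.02%) and 212 distal regions (8.08%). A further 148 and 207 regions had an H3K9Ac summit of a single replicate or one that was not joined. Most of the 104 and 212 were close to acetylated chromatin all the same: 72 promoter and 110 distal regions had an H3K9Ac summit within 2000 bp, with medians of 1632 and 1911 bp. The 104 promoter regions held SAP30 in 68.3%, SIN3A in 49.0%, H3K4me3 in 46.2% and Pol II in 61.5%. The 212 distal ones held them in 73.1, 22.2, 19.8 and 30.2%. Their number depends on the libraries. With a single SIN3B or H3K9Ac library left out it was 165 to 325 at promoters and 321 to 1265 at distal regions.

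The best-ranked SIN3B region of all was among them. At TRMT1, which encodes a tRNA methyltransferase, the summits lay 31 bp from the start (chr19:13227501-13227503, an exon) with ranks of 0.00380% and 0.0135%. The nearest H3K9Ac summits were 1891 and 1898 bp away. ZNF581 had ranks of 2.61% and 2.64% with H3K9Ac at 1942 and 1900 bp, and TMEM69 had 2.90% and 3.09% with 1245 and 1230 bp. All 3 held SAP30, SIN3A and Pol II. Of the distal ones, a region at MHENCR, a long noncoding RNA, had ranks of 2.99% and 5.38%. One in TXNRD1, which encodes a thioredoxin reductase, had 5.42% and 12.6%, with H3K9Ac at 1269 and 1252 bp. A region 2250 bp from the start of JUNB, an AP-1 gene, had 10.0% and 11.7%, with H3K9Ac at 2338 and 1335 bp.

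The remaining 70 regions, 18 promoter and 52 distal, lay over 5000 bp from any H3K9Ac summit, and 18 of them held RE1 letters. The regions just inside and just outside that limit lay at 4893 and 5058 bp. The left part TTCAGCACC lay in the window of at least 1 best summit in 13 of 70 (18.6%, 10.3 to 29.7). It lay in 34 of 9989 acetylated promoter regions (0.340%), in 7 of 2204 acetylated distal regions (0.318%), in 2 of the 246 regions 1000 to 5000 bp from H3K9Ac (0.813%), and in 0.267% of all start-site windows. The cores of both parts in order with 2 bases between them, the spacing of the full element, were found in 9 of 70 (12.9%), 3 of 9989, 0 of 2204 and 0 of 246. The left part or both cores anywhere in the window were found in 18 of 70 (25.7%, 16.0 to 37.6), against 2.02%, 2.95% and 4.88%.

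These shares depend on how the remote regions were chosen. Over 2000 bp from H3K9Ac the left part was found in 9.70% of 134 regions and over 10000 bp in 24.0% of 50, both limits tried after the data were seen. With the second SIN3B library alone it was found in 5.18% of 251 regions, with the first alone in 3.42% of 497, and with lists of equal length in 3.71% of 404. Without the first or the second H3K9Ac library it was found in 11.4% and 14.4%.

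The 18 remote regions with RE1 letters held other SIN3 subunits but no Pol II. SAP30 was present at 18 of 18 and SIN3A at 14 of 18, against 41 and 5 of the 52 remote regions without these letters. Pol II was at 0 of 70 remote regions (upper limit 5.13%) and H3K4me3 at 10, of which 3 had RE1 letters. Of the 20 best-ranked remote regions, 10 had RE1 letters. The median rank was 42.6% with and 62.8% without them. AP-1 letters lay at 20 of the 52 and at 3 of the 18. Of all 70 remote regions, 33 and 32 had a CAGCACC core within 500 bp of the best summit of replicates 1 and 2. In these the nearest core lay at a median of 33 and 73.5 bp from the summit.

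The 6 regions whose sequences are shown above had the following values. At NPAS4, a transcription factor induced by neuronal activity, the SIN3B summits ranked at 2.22% and 3.67% and lay in an intron 774 bp from the start, with the nearest H3K9Ac 16826 and 13740 bp away. The VRK3 region, in a kinase gene and nearest to the start of SIGLEC16, ranked at 6.19% and 5.89%, with H3K9Ac at 17133 and 17140 bp. The region 10513 bp from the start of APLP1, an amyloid precursor-like protein, ranked at 20.6% and 26.0%. That in SYT7, a synaptotagmin, ranked at 22.6% and 27.4%, and that in ATP2B2, a plasma membrane calcium pump, at 43.3% and 34.8% with H3K9Ac 92922 and 92730 bp away. At L1CAM, a neural adhesion molecule, the region 314 bp from a start ranked at 34.8% and 76.0%, with H3K9Ac at 6368 and 6393 bp. All 6 held SAP30 and SIN3A, and none of the 6 held H3K4me3 or Pol II in both replicates. The other 12 of the 18 lay at or nearest to RAB39A, XKR7, LIN28A, RAB10, GGA2, UCKL1, C11orf97, SHANK2-AS2, MIR7-3HG, BICDL1, UNC5A and ENSG00000287677.

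Gene by gene, SIN3B was nested in acetylation. Of 20098 protein-coding genes, 10388 (51.7%) had SIN3B at a start site in both replicates, 10212 (50.8%) had SIN3B and H3K9Ac, 2124 (10.6%) had H3K9Ac alone, 176 (0.876%) SIN3B alone and 7586 (37.7%) neither. This made 98.3% of the SIN3B genes acetylated and gave SIN3B to 82.8% of the acetylated genes. Of the 176, 114 had H3K9Ac in a single library and 62 in none. Only 10 lay over 5000 bp from H3K9Ac, namely BICDL1, C11orf97, CCN5, DACT3, ENSG00000173366, NPAS4, PGBD5, RAB39A, VWA3B and XKR7. Acetylated genes had SIN3B in 96.5% for H3K9Ac ranks of 0 to 10%, in 90.4% for 10 to 20%, in 63.8% for 20 to 40%, in 22.04% for 40 to 60% and in 9.91% beyond.

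Most neuronal genes known as REST targets had neither, against 37.7% of all protein-coding genes. Of 30 such genes, 22 had neither SIN3B nor H3K9Ac at a start site in both replicates, among them CELF3, CHGA and CHGB. Both were found at 6 (BDNF, BSN, DISP2, HCN3, L1CAM and TUBB3), and H3K9Ac alone at 2, among them SYP. BDNF, a neurotrophin, had SIN3B ranks of 22.9% and 26.0% and H3K9Ac ranks of 1.33% and 0.727%. HCN3, an ion channel, had SIN3B ranks of 13.5% and 44.05%. A gene with several start sites can have SIN3B at one of them and H3K9Ac at another, as for L1CAM.

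Most genes of the SIN3 complex and of histone acetylation carried both, as did most acetylated genes. Of 22 genes for SIN3 subunits, 19 had SIN3B and H3K9Ac, RBBP7 and SIN3B itself H3K9Ac alone, and KDM5B, a demethylase of H3K4, SIN3B alone. KDM5B had H3K9Ac in the second library only, at a rank of 7.59%. The SIN3B ranks at BRMS1, a subunit named for suppression of metastasis, were 0.814% and 1.80%, with H3K9Ac ranks of 9.20% and 8.27%, and at ARID4A 5.98% and 3.85%. Of 12 acetyltransferase genes 10 had both, and the remaining KAT2A and KAT2B had H3K9Ac alone. KAT5 had SIN3B ranks of 1.34% and 0.262% and H3K9Ac ranks of 17.5% and 7.05%, and KAT8 SIN3B ranks of 1.24% and 3.43% and H3K9Ac ranks of 27.5% and 31.8%. Of 16 deacetylase genes 14 had both, with SIRT3 at SIN3B ranks of 0.988% and 1.74% and HDAC4 at 4.96% and 2.49%, while HDAC9 and HDAC11 had H3K9Ac alone. Of the acetylated genes of the 3 lists, 90.5%, 83.3% and 87.5% had SIN3B, near the 82.8% over all acetylated genes.

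Proliferation genes had both almost without exception, as did acetylated genes of like rank. Over all protein-coding genes 50.8% had both. The E2F and mitotic lists had median H3K9Ac ranks of 9.39% and 4.69%. Of all acetylated genes ranked at 0 to 10%, 96.5% had SIN3B. All 30 genes of E2F targets and DNA replication had SIN3B and H3K9Ac, with RRM2, a subunit of ribonucleotide reductase, at SIN3B ranks of 1.97% and 0.558% and H3K9Ac ranks of 1.85% and 3.73%. ORC1 of the origin recognition complex had SIN3B ranks of 2.66% and 1.41% and H3K9Ac ranks of 7.72% and 6.38%. Of 30 mitotic genes 29 had both and MYBL2 H3K9Ac alone. NEK2, a centrosomal kinase, had SIN3B ranks of 0.354% and 0.240% and H3K9Ac ranks of 16.0% and 16.1%. AURKA had SIN3B ranks of 1.32% and 0.933% and H3K9Ac ranks of 3.62% and 0.529%. Of 13 genes of the MYC, MAX and MXD network 9 had both, MNT, MLXIPL and MYCL H3K9Ac alone and MYCN neither. MYC itself had SIN3B ranks of 10.3% and 5.16% and H3K9Ac ranks of 7.53% and 6.49%, and MXD3 had SIN3B ranks of 11.8% and 12.1% and H3K9Ac ranks of 12.2% and 14.8%.

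**Figure D5:**
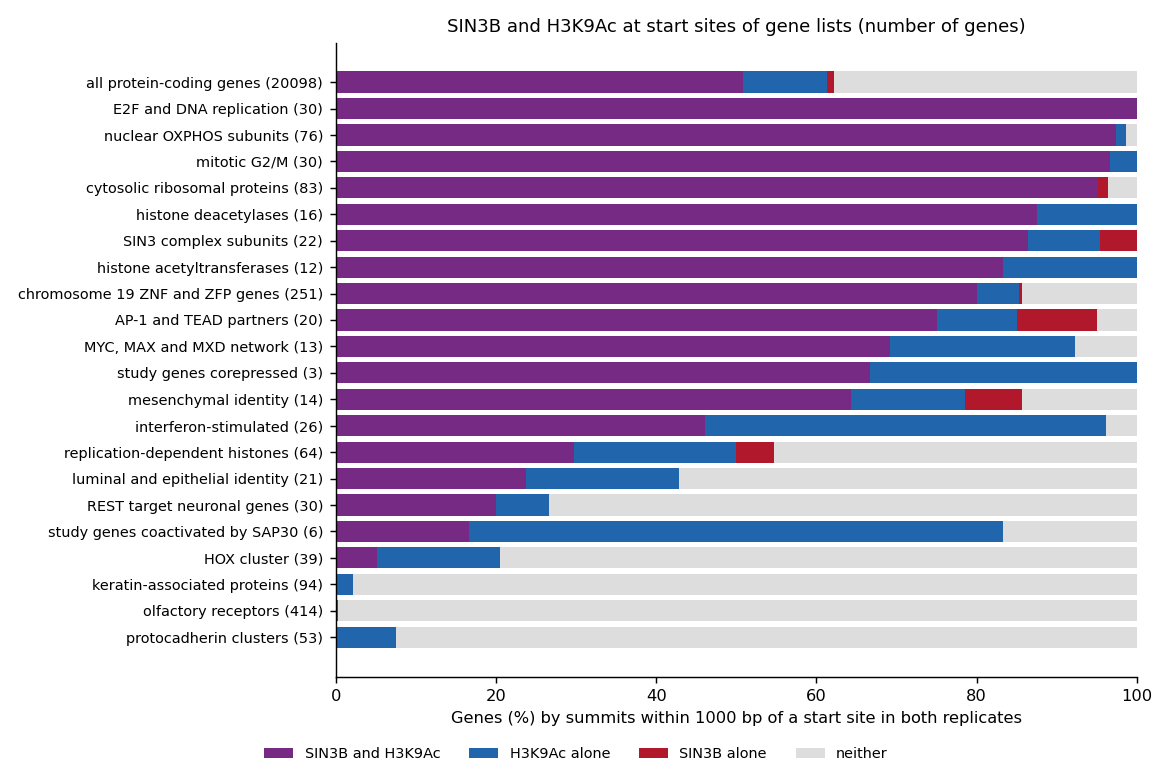
Share of the genes of each list (horizontal axis, %) with SIN3B and H3K9Ac, H3K9Ac alone, SIN3B alone or neither at a start site in both replicates, 1 bar for each list with all 20098 protein-coding genes for comparison. E2F and replication genes are at 100% with both, interferon-stimulated genes are divided between both (12) and H3K9Ac alone (13), and olfactory receptors are at 99.8% with neither.

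Most ribosomal and oxidative phosphorylation genes had both, against 50.8% of all protein-coding genes. Their median H3K9Ac ranks were 4.72% and 9.12%, and 96.5% of all acetylated genes ranked at 0 to 10% had SIN3B. Of 83 genes for cytosolic ribosomal proteins 79 had both and RPL23A SIN3B alone, and of 76 genes for nuclear subunits of oxidative phosphorylation 74 had both. NDUFB3, a subunit of complex I, had SIN3B ranks of 0.255% and 0.514% and H3K9Ac ranks of 18.3% and 19.8%. RPL7L1 had SIN3B ranks of 0.342% and 0.3005%. Of 251 zinc finger genes of chromosome 19, 201 had both (80.1%), 13 H3K9Ac alone, 36 neither and ZNF787 SIN3B alone. ZNF576 had SIN3B ranks of 0.217% and 0.408% and H3K9Ac ranks of 14.3% and 20.5%. Ribosomal and zinc finger genes have close copies elsewhere in the genome, and how multiply mapping reads were treated is not given in the sources used here.

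Interferon-stimulated genes were acetylated but had SIN3B less often than acetylated genes at large, a comparison of counts that was not tested. Of 26 matched genes 25 were acetylated, but 12 had SIN3B (48.0% of the acetylated, against 82.8% over all genes), 6 more had it in a single library and 7 in none. Their median H3K9Ac rank was 24.5%, and 63.8% of all acetylated genes ranked at 20 to 40% had SIN3B. PSMB9, a subunit of the immunoproteasome, had SIN3B ranks of 20.6% and 27.3% and H3K9Ac ranks of 4.23% and 2.40%. OAS1 had neither.

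Most mesenchymal genes had both, against 50.8% of all protein-coding genes. Of the acetylated mesenchymal genes 81.8% had SIN3B, near the 82.8% over all acetylated genes. For the luminal and epithelial list it was 55.6%, and for AP-1 and TEAD factors and their partners 88.2%. Of 14 mesenchymal genes 9 had both, FOSL1 and TGFBI H3K9Ac alone, SNAI2 SIN3B alone, and CDH2 and SPARC neither. VIM, the mesenchymal intermediate filament, had H3K9Ac ranks of 0.256% and 0.727% and SIN3B ranks of 10.2% and 28.3%. CD44, an adhesion receptor, had H3K9Ac ranks of 7.37% and 1.59% and SIN3B ranks of 15.5% and 12.6%. Of 21 luminal genes 5 had both, among them KRT8, KRT18 and XBP1, while 4 had H3K9Ac alone and 12 neither. Of 20 genes for AP-1 and TEAD factors and their partners 15 had both, with FOSL2 at SIN3B ranks of 4.50% and 11.7% and H3K9Ac ranks of 0.476% and 0.437%. JUNB and CCN1 counted as SIN3B alone, each with H3K9Ac in a single library. The rank of JUNB was 2.78% and 4.24% for SIN3B and 3.34% in the H3K9Ac library that had it.

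Olfactory receptor, keratin-associated, protocadherin and HOX genes had almost no SIN3B, against 51.7% of all protein-coding genes with it. None of 414 olfactory receptor, 94 keratin-associated and 53 protocadherin genes had SIN3B in both replicates, and 1, 2 and 4 of them had H3K9Ac. Of 39 HOX genes 2 had both (HOXC5 and HOXD1), 6 H3K9Ac alone and 31 neither. Replication-dependent histone genes were mixed, and of 64 such genes 19 had both, 13 H3K9Ac alone, 3 SIN3B alone (H1-2, H2AC4 and H2BC21) and 29 neither. Of the 32 acetylated histone genes 59.4% had SIN3B, against 82.8% over all acetylated genes. Histone genes too are close copies of each other.

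Of 9 genes that the study described as coactivated or corepressed, 3 had SIN3B and H3K9Ac in both replicates, against 50.8% of all protein-coding genes. RDX, which encodes radixin, had SIN3B ranks of 16.2% and 16.4% and H3K9Ac ranks of 5.20% and 0.716%. IPO13, a nuclear import receptor, had SIN3B ranks of 7.46% and 7.10% and H3K9Ac ranks of 4.38% and 6.63%, and HSPA6, a heat shock protein, SIN3B ranks of 86.1% and 49.8% and H3K9Ac ranks of 40.03% and 40.8%. PDGFD, NOTCH3, ADM2, ARTN and CLDN1 had H3K9Ac alone, with a SIN3B summit in a single library at ARTN and CLDN1. By ChIP followed by quantitative PCR in these cells, the study reported SIN3B at PDGFD, CLDN1, RDX and ADM2. A summit that was not called in both libraries does not show that SIN3B was absent. PDGFB had neither, with H3K9Ac in a single library. Of the 6 genes described as coactivated by SAP30 1 had both, and of the 3 corepressed ones 2 did. The study chose these genes in these cells, so the counts are no independent evidence.

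Where H3K9Ac stood without SIN3B it mostly lay far from it, though several of the best-ranked regions did not. The 1995 promoter and 11262 distal H3K9Ac regions with no SIN3B summit within 1000 bp had their nearest one at a median of 33396 and 23063.5 bp. SAP30 was present at 64.4% and 29.7% of them, SIN3A at 1.00% and 0.107%, H3K4me3 at 69.3% and 14.7% and Pol II at 36.4% and 8.60%. Windows around the distal H3K9Ac summits held a median of 2 CpG dinucleotides, against 4 for distal H3K9Ac summits with SIN3B. The best-ranked promoters of this kind were those of PLEC, the cytolinker plectin, with H3K9Ac ranks of 0.597% and 0.192%, GMEB1, a DNA-binding protein, with 0.553% and 0.664%, NAA38, and a long noncoding RNA gene, ENSG00000289050. SIN3B was 21067 and 21128 bp from GMEB1, but 2688 and 2759 bp from PLEC and 1020 and 1215 bp from NAA38. From ENSG00000289050 it was 1069 and 1089 bp away. The best-ranked distal ones lay near MKNK2, in CMTM7, near PHLDA1-AS1, and near LUNAR1, with SIN3B 1711, 1421, 7595 and 61328 bp away in the first replicate. All 4 also held SAP30 and Pol II.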

How the data were processed

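Samples were grouped by the antibody and genotype in the labels. The deposited files list peak summits of 1 bp, called by the authors in each library, whose score per the labels' tools is taken as the −log10 of a q-value. The lowest was 1.31 in the 4 lists. The submitters' processing notes name FastQC 0.11.2, Bowtie2 2.3.3.1, Picard, MACS2 2.1.0 and hg19. The control library of each list and the depth are not given in the sources used here. Of the other samples, 12 without a list and 4 with lists not needed here were not analysed.

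Summits on the autosomes and X were extended by 500 bp at each side and merged. Regions with both replicates were kept, and 1 bp of overlap between extended regions joined 2 targets. Start sites came from GENCODE release 44, mapped to GRCh37, for genes of proteins and long noncoding RNAs. A gene had a target when a summit of each replicate lay within 1000 bp of a start site. Letters were searched in 201 bases around the best-ranked summit. Intervals are 95% Clopper-Pearson. Alternatives were other extensions, windows, overlaps, rank limits, the replicate number as a block, and each library left out. Named were the followed genes, genes of each list with SIN3B alone, the 2 best-ranked, up to 4 with neither, and the 4 best-ranked regions of each class. Further names in a class, and those given beside a count, were chosen after their values were seen. Some items that the rule names are not reported here. Members and lists were chosen with earlier results of these data known. The merging was tested on simulated data. Python 3.11.15, pandas 2.3.3, numpy 2.4.6, SciPy 1.17.1, pysam 0.24.0 and Matplotlib 3.10.9 were used.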

Additional observations from a re-analysis of the deposited data

How the results depend on the processing

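The difference in the promoter share of summits, the only value with a direction, stayed lower for H3K9Ac under each alternative that recomputed it. Shares and distances cannot change direction, and 52 of their recomputed values moved by at least the spread between pairings. The 33 other recomputed values moved less or, for the difference in promoter share, kept their direction. The limit for a counted distance grew with the extension, so the distances at 250 and 1000 bp moved with that limit. Positions along transcription, shares by rank, gene lists, letters other than those of AP-1 and RE1, and SAP30-KO1 shares were not recomputed. Values are given as the shares of SIN3B promoter regions, SIN3B distal regions, H3K9Ac promoter regions and H3K9Ac distal regions that hold the other target, then the median distance at promoters and at distal regions, where these moved by more than the spread between pairings. With 250 bp at each side of a summit they were 82.2%, 58.6% and 65.1% with 219.75 and 272.875 bp, and with 1000 bp at each side 99.5% and 92.7% for SIN3B with 304 and 483.125 bp. The better-ranked 50% of each list gave 96.7%, 71.1%, 59.5% and 7.46%, with 402 bp at distal regions. Lists of equal length gave 94.8%, 61.1%, 83.04% and 28.7%, with 416 bp. A summit of either replicate gave 82.7% for SIN3B distal regions, 81.3% and 27.4% for H3K9Ac, and 351.25 bp. A promoter window of 500 bp gave 97.9% for SIN3B promoters with 251.125 and 395.75 bp, and one of 3000 bp 95.9%, 88.6% and 67.9% with 325.25 bp at distal regions. An overlap of at least 50% gave 76.6%, 67.9%, 67.3% and 9.22%. With the replicate number as a block, that is with same-numbered libraries taken as pairs, the shares were 95.9%, 76.2%, 77.1% and 20.5%; SIN3B and H3K9Ac libraries share only a number, so the pairing has no known basis, and the promoter share of summits then had an exact p of 0.5. With each library left out in turn the ranges were 95.1 to 98.4%, 72.0 to 87.8%, 72.2 to 81.2% and 12.3 to 30.1%, 267.5 to 299 bp and 349.5 to 381 bp, and −36.8 to −29.5 points for the promoter share of summits. The AP-1 share was 21.1% and 41.1% in windows of 50 and 150 bp, tried after the data were seen. The cause of these moves was not tested. Depth is unknown, so an absent summit cannot be told apart from a summit too weak to be called.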

Other observations

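H3K9Ac regions were called in SAP30-KO1 cells at most SIN3B sites that carried the mark in parental cells. A called region does not measure the level of the mark, and levels were not compared here. The study reported more H3K9Ac in SAP30-KO1 cells at genes corepressed by SAP30 and the SIN3 proteins. At coactivated genes it reported no change. Of the acetylated SIN3B regions, 9889 of 9989 promoter regions (99.0%) and 2070 of 2204 distal regions (93.9%) held an H3K9Ac region of both SAP30-KO1 replicates. Of those with no parental H3K9Ac summit within 1000 bp, 16 of 104 promoter and 32 of 212 distal regions held one in SAP30-KO1 cells, and of the 70 remote regions 8 did, none of them among the 18 with RE1 letters.

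Parental H3K9Ac promoter regions were found again in SAP30-KO1 cells in 98.1% (97.8 to 98.4) where SIN3B was present and in 81.4% (79.6 to 83.1) where it was not, and distal regions in 87.9% (86.6 to 89.1) and 73.0% (72.2 to 73.8). By parental H3K9Ac rank the shares with and without SIN3B were as follows. At ranks of 0 to 10% they were 98.9% and 97.3% (of only 37 regions) at promoters and 95.02% and 100% (of only 11) at distal regions. At ranks of 10 to 20% they were 98.9% and 99.2%, and 97.5% and 95.4%. At ranks of 20 to 40% they were 98.2% and 97.0% at promoters and 96.0% and 97.4% at distal regions. At ranks of 40 to 60% they were 86.2% and 84.8%, and 88.5% and 85.9%. At ranks of 60 to 100% they were 63.7% and 55.9%, and 51.2% and 52.3%. The parental libraries define these regions, so a region that a weak library misses counts as lost, and no test was made.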
